A study of Mus musculus with 24 samples.

Results

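The axon guidance ligands and receptors of the mouse were examined as targets of MYT1L, a zinc finger transcription factor of neurons. They were taken by symbol from the protein-coding genes and comprised 71 of 21938 genes: 20 semaphorins, 8 ephrins, 3 Slits, 4 netrins and 2 netrin-G proteins as ligands, and 9 plexins, 2 neuropilins, 14 Eph receptors, 4 Robo receptors and 5 genes of the DCC and UNC5 group as receptors. Binding of MYT1L was read out by CUT&RUN: an antibody brings a nuclease to a chromatin protein, and the DNA it releases there is sequenced. The groups were wild-type (WT) embryos at E18.5, WT pups at birth (P0), and 3-month-old adults that either carried 1 mutant Myt1l allele (HET) or were WT, all labelled as C57BL/6J and of unknown sex. By the study's account the HET line carries a germline frameshift in Myt1l. Its methods name C57BL/6N for the zygotes and the first breeding, whereas the labels name C57BL/6J. The tissue labelled at E18.5 was the cortex and at the later ages the prefrontal cortex, whereas the study's methods name the prefrontal region throughout. Each group had 3 MYT1L libraries, merged by the authors into 1 list of sites with a start and an end and no height or score. No value below therefore has a replicate error or a test, and the 95% intervals are exact binomial intervals that cover counting error only. E18.5 and P0 were sequenced in run 1 and both adult groups in run 2, so for the adult against P0, the age and the sequencing run cannot be told apart. By the labels, age and tissue cannot be told apart for P0 against E18.5. The lists hold no expression values, so tissue markers could not be checked.

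Growing axons are steered by cues that attract or repel the growth cone. Secreted class 3 semaphorins act through neuropilins and plexins, ephrins through Eph receptor tyrosine kinases, Slits through Robo receptors, and netrins through DCC and UNC5 receptors. In the cortex these pathways act on the callosal and corticofugal tracts, on neuronal migration and, later, on synapses.

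A gene was called a target where a site lay within 5 kb of 1 of its transcription starts. The guidance genes were called most often at P0 and least often in the adult. At E18.5, 30 of 71 were targets (42.3%, interval 30.6 to 54.6%), beside 30.0% of all protein-coding genes. At P0, 47 were targets (66.2%, interval 54.0 to 77.0%), beside 45.9% of all genes. In adult HET mice, 15 were targets (21.1%, interval 12.3 to 32.4%), beside 23.4% of all genes, and in adult WT mice 11 were targets (15.5%, interval 8.0 to 26.0%), beside 20.1% of all genes. Both perinatal shares thus lay above the share of all genes. Both adult shares were below it, but their intervals include it. The adult side depended on the annotation: with the starts of every annotated transcript, 22 guidance genes were targets in adult HET (31.0%, all genes 30.4%) and 19 in adult WT (26.8%, all genes 24.6%).

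Guidance genes differed from the average gene in promoter and length, and the perinatal difference was smaller beside genes of like promoter class and searched length. A CpG-rich promoter was present in 67.6% of guidance genes and 46.0% of all genes, and the median gene length was 56.6 kb against 17.4 kb. The target share of all genes of the same CpG class and the same length of DNA near starts, averaged over the guidance genes, came to 38.5% in the E18.5 list, 57.0% in the P0 list, 25.8% in the adult HET list and 24.1% in the adult WT list. The intervals of the guidance genes at E18.5, P0, adult HET and adult WT all include this second background. Among CpG-rich promoters the shares were close at E18.5 (47.9% of guidance genes, 50.3% of all) and at P0 (72.9% and 71.9%), and lower for guidance genes in adult HET (20.8% and 25.8%) and adult WT (16.7% and 27.3%). Of the 23 guidance genes with CpG-poor promoters, 7 were targets at E18.5 (30.4%, all CpG-poor genes 12.8%), 12 at P0 (52.2%, all 23.9%), 5 in adult HET (21.7%, all 21.4%) and 3 in adult WT (13.0%, all 14%). The perinatal excess over all genes of the same promoter class thus stood among the promoters scored as CpG-poor. This class was scored at the outermost annotated start. For the P0 targets Robo1 (ratio 0.21), Sema3a (0.36), Plxna2 (0.11), Epha6 (0.54), Nrp1 and Robo2 that start was not among those searched for sites. Nrp1 (0.58), Dcc (0.57) and Robo2 (0.56) lay near the limit of 0.6, so the split depends on the class rule. Among genes of at least 100 kb, 33 of which were guidance genes, the share was higher for guidance genes at E18.5 (51.5% and 34.4%) and P0 (81.8% and 61.6%), like that of all genes in adult HET (30.3% and 29.6%) and lower in adult WT (18.2% and 28.4%).

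**Figure D1:**
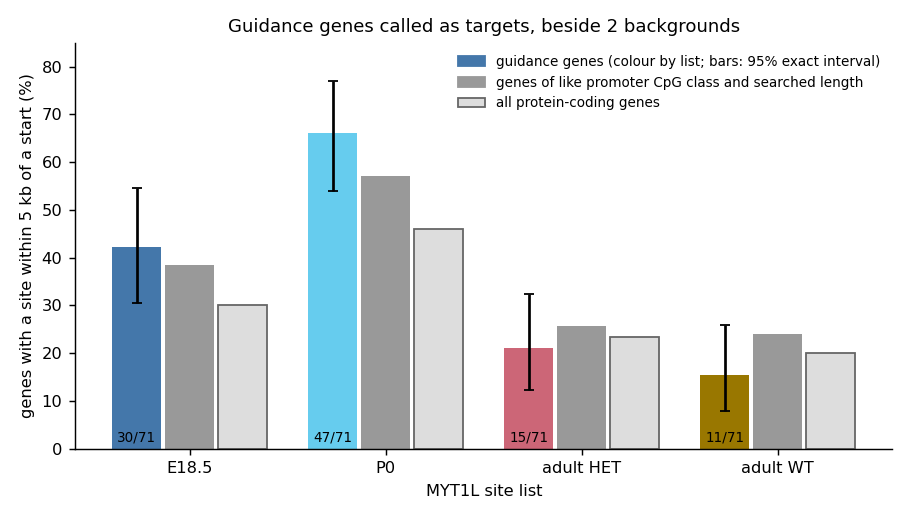
Share of genes with a MYT1L site within 5 kb of a start, in percent, for the 71 guidance genes (coloured bars with exact 95% intervals), genes of like CpG class and searched length (dark grey) and all protein-coding genes (light grey) in each of the 4 lists. The guidance genes reached 66.2% at P0, against 45.9% of all genes, and 15.5% in adult WT, against 20.1% of all genes.

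Across the lists, 2 guidance genes were targets in all 4 (2.82%, all genes 4.75%), namely Epha7 and Ephb1. This count was 1 at a distance of 1 kb (Ephb1), 5 at 10 kb, 4 with every annotated start and 0 with sites at least as wide as the list's median. A further 14 were targets at E18.5 and P0 alone and 14 at P0 alone (19.7% each, beside 12.8% and 11.6% of all genes). No list called 20 of them (28.2%, all genes 39.2%): Sema3d, Sema3g, Sema4d, Sema4f, Sema6b, Efna2, Ntn1, Ntn3, Slit3, Plxna3, Plxnb3, Plxnd1, Nrp2, Epha1, Epha2, Epha8, Epha10, Robo4, Unc5a and Unc5b. Among these were the attractant netrin-1 (Ntn1) and the neuropilin-2 receptor of class 3 semaphorins (Nrp2). Sema4d, Sema3d, Unc5a and Epha10 of this set became targets in 1 or 2 lists when every annotated start was counted, and Ntn1, Ntn3, Efna2 and Epha1 did so at a distance of 10 kb.

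**Figure D2:**
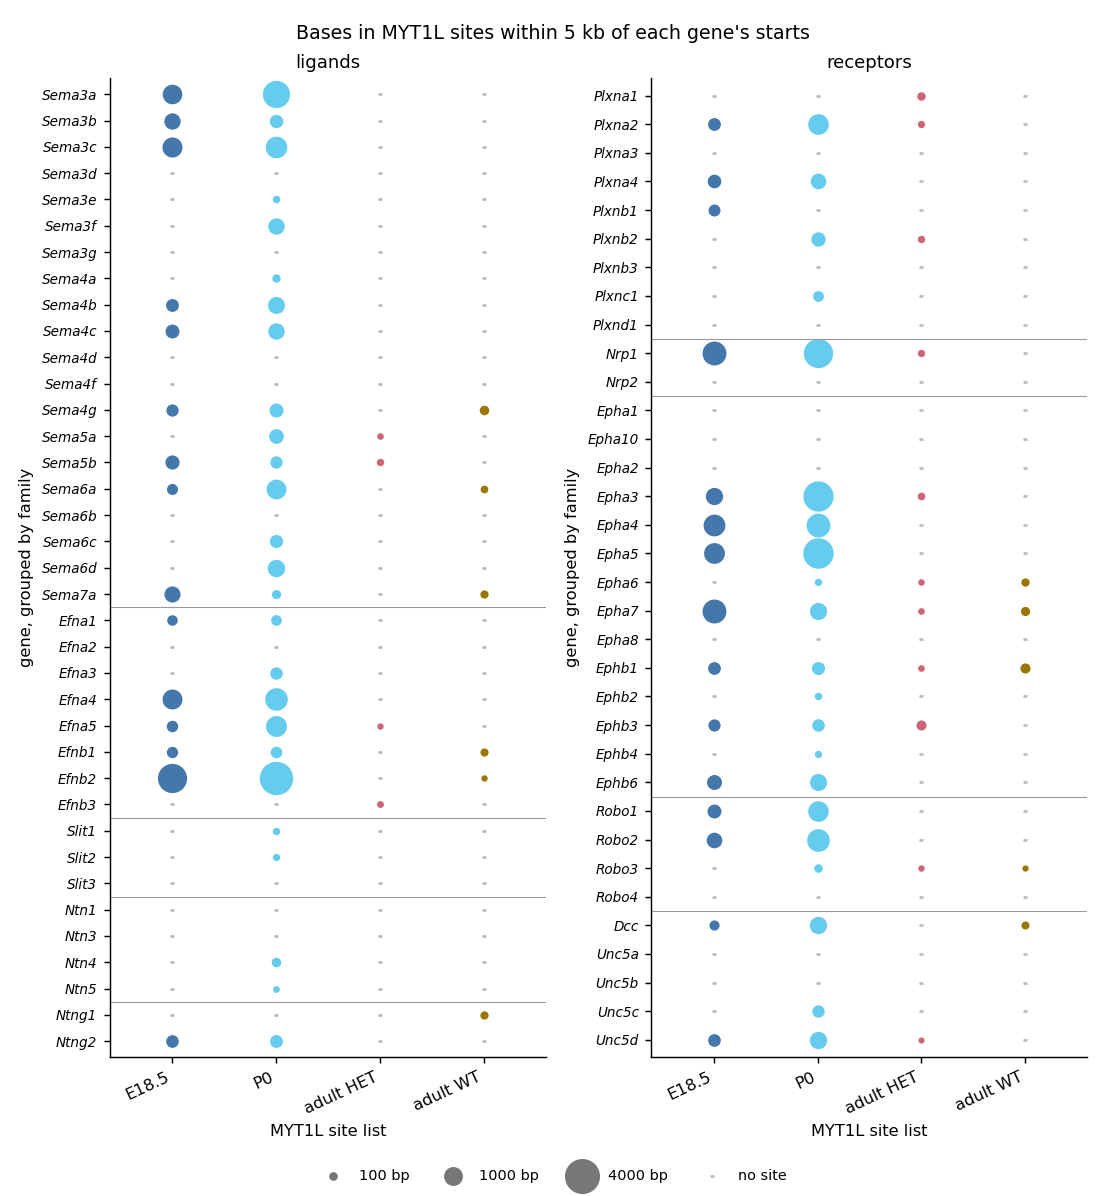
Bases in MYT1L sites within 5 kb of a start for each of the 71 guidance genes (rows, by family) in the 4 lists (columns). The area of a point grows with the number of bp, and a dash is a gene with no site. Most large points stand at E18.5 and P0, led by Efnb2 with 4031 bp at P0 and 3065 bp at E18.5, and no adult point exceeds 303 bp.

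The sequences of the adult sites of Ephb1 and Epha7, and of adult sites of 4 other genes that were among the 5 with the most bp in a list, are shown because the adult results turn on them. All were read from build GRCm38 (mm10) on the strand of the gene, 5′ to 3′, and none overlapped a coding exon or an annotated UTR. Capitals mark AAAGTT, the MYT1L core motif, or its reverse complement AACTTT, and a run without capitals holds neither. Ephb1 is an Eph receptor known from the choice of retinal axons to cross the midline or not. Its adult HET site lay on the minus strand at chr9:102355460-102355553, 814 bp upstream of the start. Its adult WT site was separate, at chr9:102354648-102354948 and inside its E18.5 and P0 sites, and its central 150 bp (chr9:102354723-102354872) are printed.

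Ephb1 adult HET, whole site: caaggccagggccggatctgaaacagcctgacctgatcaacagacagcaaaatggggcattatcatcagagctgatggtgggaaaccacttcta
Ephb1 adult WT, central 150 bp: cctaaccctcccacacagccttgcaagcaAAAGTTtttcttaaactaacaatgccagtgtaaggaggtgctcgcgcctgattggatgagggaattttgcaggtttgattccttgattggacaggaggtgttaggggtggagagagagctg

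Epha7, an Eph receptor of cortical and thalamocortical mapping, had its adult HET site on the plus strand at chr4:28809052-28809143, with 0 CpG dinucleotides in 92 bp. Its adult WT site, at chr4:28812889-28813127 in the promoter, held 25 in 239 bp. The GC content was 32.6% in the adult HET site and 69.9% in the adult WT site.

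Epha7 adult HET, whole site: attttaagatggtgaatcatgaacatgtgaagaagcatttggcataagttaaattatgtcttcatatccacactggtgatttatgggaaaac
Epha7 adult WT, whole site: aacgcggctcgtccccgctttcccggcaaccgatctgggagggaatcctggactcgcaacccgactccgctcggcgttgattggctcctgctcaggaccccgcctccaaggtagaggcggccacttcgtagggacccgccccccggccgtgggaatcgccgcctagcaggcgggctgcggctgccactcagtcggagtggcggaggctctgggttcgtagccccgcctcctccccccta

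Ephb3 (chr16:21204321-21204623, plus strand, adult HET, central 150 bp chr16:21204397-21204546 printed), Efnb2 (chr8:8661346-8661424, minus strand, adult WT) and Sema4g (chr19:44987929-44988191, plus strand, adult WT) overlapped sites of both perinatal lists. Ntng1 (chr3:110136171-110136350, minus strand, adult WT) overlapped none. The intronic P0 site of Epha3 (chr16:63859365-63859568, minus strand), 4613 bp downstream of a start, is shown as an AAAGTT match far from the promoter in sequence of 24.5% GC.

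Ephb3 adult HET, central 150 bp: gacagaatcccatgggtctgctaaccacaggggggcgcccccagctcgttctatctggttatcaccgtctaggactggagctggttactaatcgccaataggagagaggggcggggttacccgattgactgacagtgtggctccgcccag
Efnb2 adult WT, whole site: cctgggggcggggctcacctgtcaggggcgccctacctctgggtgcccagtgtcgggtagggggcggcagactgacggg
Sema4g adult WT, whole site: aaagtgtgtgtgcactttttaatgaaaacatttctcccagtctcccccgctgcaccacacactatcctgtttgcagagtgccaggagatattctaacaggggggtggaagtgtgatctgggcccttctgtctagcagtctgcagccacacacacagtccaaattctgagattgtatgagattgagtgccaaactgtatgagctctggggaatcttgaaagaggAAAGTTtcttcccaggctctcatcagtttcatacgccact
Ntng1 adult WT, whole site: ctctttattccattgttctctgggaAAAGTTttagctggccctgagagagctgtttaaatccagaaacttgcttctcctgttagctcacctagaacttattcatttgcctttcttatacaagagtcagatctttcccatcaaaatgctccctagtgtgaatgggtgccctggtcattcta
Epha3 P0, whole site: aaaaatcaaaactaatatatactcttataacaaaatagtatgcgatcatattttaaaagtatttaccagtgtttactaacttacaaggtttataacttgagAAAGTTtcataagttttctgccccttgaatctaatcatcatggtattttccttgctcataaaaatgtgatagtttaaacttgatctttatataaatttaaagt

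In windows of 150 bp around site midpoints, AAAGTT on either strand was present at 12.8% of the 39 guidance gene sites at E18.5 (interval 4.30 to 27.4%), 12.3% of 130 at P0 (7.20 to 19.2%), 0 of 16 in adult HET (0 to 20.6%) and 2 of 11 in adult WT (2.28 to 51.8%). Of all sites within 5 kb of a protein-coding start, 10.8% held it at E18.5, 12.1% at P0, 12.3% in adult HET and 10.7% in adult WT. The 4 intervals of the guidance gene sites include these shares. The 2 adult WT matches were those of Ephb1 and Ntng1.

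Among the ligands, the semaphorins were targets in 9 of 20 cases at E18.5, 15 at P0, 2 in adult HET and 3 in adult WT. Beside all family counts stand the shares of all genes: 30.0% at E18.5, 45.9% at P0, 23.4% in adult HET and 20.1% in adult WT. The families are small, and whether any differed from these shares was not tested. The secreted class 3 genes gave 3 of 7 targets at E18.5 and 5 at P0, and 0 in adult HET and adult WT. Counting every annotated start put Sema3d in the adult HET list and Sema3c in the adult WT list, and a distance of 10 kb put Sema3a and Sema3e in the adult HET list. Sema3a, a repellent of cortical axons, had 5 sites with 2663 bp at P0 and 2 sites with 1339 bp at E18.5, none of them near the gene's outermost start. Sema3c, an attractant of callosal axons, had 1650 bp in 4 sites at P0 and 1411 bp in 2 sites at E18.5. In adult HET the semaphorin targets were Sema5a and Sema5b, transmembrane semaphorins, with 1 site each of 92 and 132 bp. In adult WT they were Sema4g, Sema6a and Sema7a, a membrane-anchored ligand that promotes axon growth, with 1 site each of 263, 148 and 179 bp. The Sema5b site was 95.5% repeat sequence.

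The ephrins, membrane-bound ligands of Eph receptors, had 5 of 8 targets at E18.5 (all genes 30.0%) and 6 at P0 (all genes 45.9%). They had 2 in each adult list (all genes 23.4% in HET and 20.1% in WT). Efnb2, a transmembrane ephrin, had the most bp of all guidance genes near starts at both perinatal ages. It had 8 sites with 4031 bp at P0 and 4 sites with 3065 bp at E18.5, from the promoter into the first 5 kb of the gene. No site remained in adult HET, and a single site of 79 bp in adult WT lay 143 bp upstream of the start. Efnb1 kept the same pattern of lists, with sites of 405 bp at E18.5, 434 bp at P0 and 174 bp in adult WT, all within 113 bp of the start. Efna4, a GPI-anchored ephrin, had 1817 bp at P0 and 1394 bp at E18.5 and no adult site.

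Slits and netrins, both secreted, were targets at P0 in 2 of 3 and 2 of 4 cases (all genes 45.9%) and in no other list. With so few genes, no difference from all genes can be read from these counts. The P0 sites were narrow, with 131 bp at Slit1, 127 bp at Slit2, 271 bp at Ntn4 and 94 bp at Ntn5. With every annotated start, Slit2 was also a target in adult HET and Slit1 in adult WT, and at 10 kb Ntn4 was one at E18.5 and Ntn1 and Ntn3 were in adult HET. Of the netrin-G proteins, membrane ligands of presynaptic adhesion, Ntng2 was a target at P0 (544 bp) and E18.5 (520 bp), and Ntng1 in adult WT alone (180 bp), 753 bp upstream of an internal start.

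Among the receptors, the Eph family had 7 of 14 targets at E18.5, 10 at P0, 5 in adult HET and 3 in adult WT. All 5 Ephb genes were targets at P0, against 5 of 9 Epha genes (55.6%), where all genes gave 45.9%. The Ephb promoters were scored as CpG-rich, a class of which 71.9% of all genes were P0 targets. Those of Epha1, Epha6 and Epha10 were scored as CpG-poor. Whether Ephb and Epha genes differed was not tested. Epha5 had 5 sites with 3340 bp at P0 and 1 site of 1525 bp at E18.5. Epha3 had 1 site of 1025 bp at E18.5, 7 sites with 3302 bp at P0 and a site of 145 bp in adult HET, 2345 bp upstream of a start and away from the perinatal sites. Epha4, a receptor of both ephrin classes needed for the corticospinal tract, had 3 sites at each perinatal age, with 2019 bp at P0 and 1673 bp at E18.5. Epha7 went the other way, with 1020 bp in 3 sites at P0, none of them in the promoter, and 2034 bp in 2 sites at E18.5. Ephb3 had promoter sites of 478 bp at E18.5, 510 bp at P0 and 303 bp in adult HET, and none in adult WT.

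The plexins, which transduce semaphorin signals, were targets in 3 of 9 cases at E18.5 (all genes 30.0%) and 4 at P0 (all genes 45.9%). They were targets in 3 cases in adult HET (all genes 23.4%) and 0 in adult WT (all genes 20.1%). Plxna2, Plxna4, Plxnb2 and Plxnc1 were called at P0, and Plxna2, Plxna4 and Plxnb1 at E18.5. The adult HET targets were Plxna1 with 2 sites of 94 and 100 bp, Plxna2 with 124 bp and Plxnb2 with 132 bp. Nrp1, the receptor subunit that binds Sema3a, had 2 sites with 2032 bp at E18.5, 7 sites with 3083 bp at P0, 1 site of 128 bp in adult HET and none in adult WT. Both perinatal lists thus held sites at Nrp1, and neither held one near a start of Nrp2. Of the Robo receptors, Robo1 had 1489 bp at P0 and 645 bp at E18.5, and Robo2 had 1828 bp at P0 and 828 bp at E18.5. Robo3, which controls midline crossing, had sites of 196 bp at P0, 81 bp in adult HET and 74 bp in adult WT at 3 different positions. With every annotated start, Robo1 was a target in all 4 lists. Dcc, the attractive netrin receptor, had 307 bp at E18.5, 1041 bp at P0 and 167 bp in adult WT, and the related repulsive receptor Unc5d had 521 bp at E18.5, 1041 bp at P0 and 65 bp in adult HET.

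Set side by side, P0 called 18 guidance genes that E18.5 did not (25.4%, all genes 17.9%), and E18.5 called 1 that P0 did not, Plxnb1 (1.41%, all genes 1.96%). Of the 29 called at both ages, 21 had more sites at P0 (72.4%) and 0 had fewer, beside 47.9% with more and 1.79% with fewer of the 6157 genes called at both ages. More bp at P0 were found for 25 (86.2%, all genes 48.5%). The median ratio of bp at P0 over E18.5 was 1.35 for guidance genes and 0.987 for all genes. Among genes of at least 100 kb the shares with more bp at P0 were 88.2% of 17 guidance genes and 61.5% of 819 genes, and among CpG-rich genes 86.4% of 22 and 48.9% of 4738. Of the E18.5 sites near guidance gene starts, 34 of 39 overlapped a P0 site (87.2%, all genes 88.4%). In the other direction 39 of 130 P0 sites overlapped an E18.5 site (30.0%, all genes 42.4%). Of the 150 separate places covered by at least 1 list, 91 were covered at P0 alone (60.7%, all genes 37.2%). Of all P0 sites near guidance gene starts 70.8%, and of the E18.5 sites 51.3%, had their midpoint within the gene body. This share was not computed over all genes. In the promoter, taken as 1 kb before a start and 100 bp after it, were 36.9% at P0 and 56.4% at E18.5. Over all genes the promoter shares were 58.9% at P0 and 78.8% at E18.5. The median width was 262 bp at P0 (all genes 317 bp) and 616 bp at E18.5 (all genes 616 bp).

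**Figure D3:**
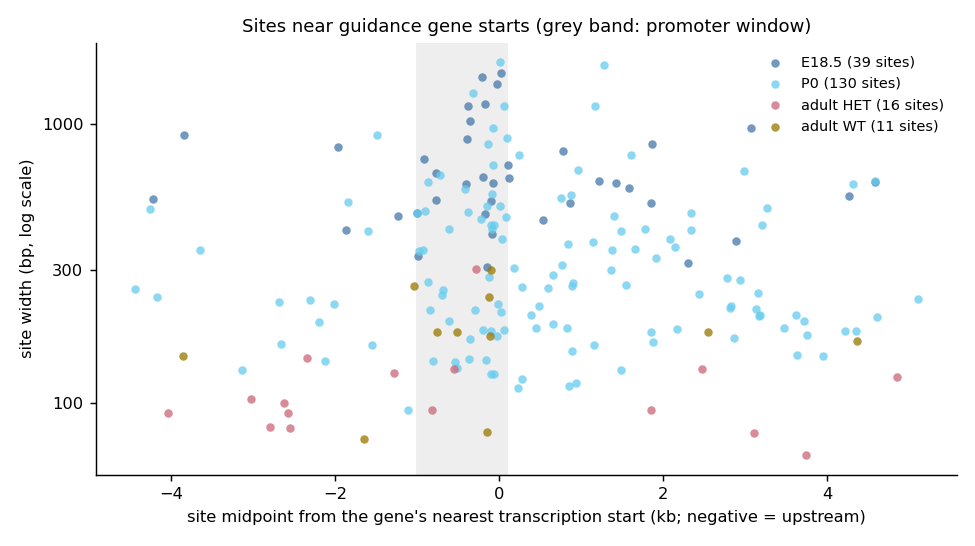
Position and width of the 196 list entries near guidance gene starts, with the distance of the site midpoint from the nearest start in kb (negative is upstream) and the width in bp on a log scale, 1 point per site, coloured by list. The P0 points extend downstream of the starts into the genes. The adult HET points are narrow, with a median of 97 bp (all genes 112 bp), and mostly outside the grey promoter band.

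Adult WT called 1 guidance gene that P0 did not, Ntng1 (1.41%, all genes 5.97%), and P0 called 37 that adult WT did not (52.1%, all genes 31.8%). The 10 genes called in both were Dcc, Efnb1, Efnb2, Epha6, Epha7, Ephb1, Robo3, Sema4g, Sema6a and Sema7a. At 5 of them, Efnb1, Efnb2, Ephb1, Sema4g and Sema7a, the adult WT site overlapped sites of both perinatal lists, and at Epha7 it overlapped the E18.5 site alone. Thus 6 of 11 adult WT sites overlapped an E18.5 site (54.5%, interval 23.4 to 83.3%, all genes 34.8%).

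Adult HET called 11 guidance genes that adult WT did not (15.5%, all genes 15.6%): Efna5, Efnb3, Epha3, Ephb3, Nrp1, Plxna1, Plxna2, Plxnb2, Sema5a, Sema5b and Unc5d. Adult WT called 7 that adult HET did not (9.86%, all genes 12.3%): Dcc, Efnb1, Efnb2, Ntng1, Sema4g, Sema6a and Sema7a. Both lists called Epha6, Epha7, Ephb1 and Robo3, but at each of the 4 genes the HET and WT sites lay at different positions. None of the 16 adult HET sites overlapped an adult WT site (interval 0 to 20.6%, all genes 11.0%), and none of the 11 adult WT sites overlapped an adult HET site (interval 0 to 28.5%, all genes 12.7%), so the intervals include the share of all genes. Receptors made up 11 of the 15 adult HET targets and 5 of the 11 adult WT targets. These were 32.4% of the 34 receptors in adult HET and 14.7% in adult WT. Among the 37 ligands, 4 were targets in adult HET (10.8%) and 6 in adult WT (16.2%). All genes gave 23.4% in adult HET and 20.1% in adult WT. Whether receptors and ligands differed was not tested. One adult HET site, at Ephb3, overlapped E18.5 and P0 sites (1 of 16, 6.25%, interval 0.158 to 30.2%, beside 16.9% for E18.5 and 17.1% for P0 over all genes). The adult HET sites were narrow (median 97 bp, adult WT 179 bp), as were those near all protein-coding starts (112 bp, adult WT 188 bp). They were farther from starts (median 2561 bp, adult WT 753 bp), a distance not computed over all genes. Of the adult HET sites 18.8% were in the promoter, against 63.6% of the adult WT sites, where all genes gave 26.3% in adult HET and 44.1% in adult WT. Within 1 kb of a start, 3 guidance genes were targets in adult HET (4.23%, all genes 9.01%) and 7 in adult WT (9.86%, all genes 11.8%).

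**Figure D4:**
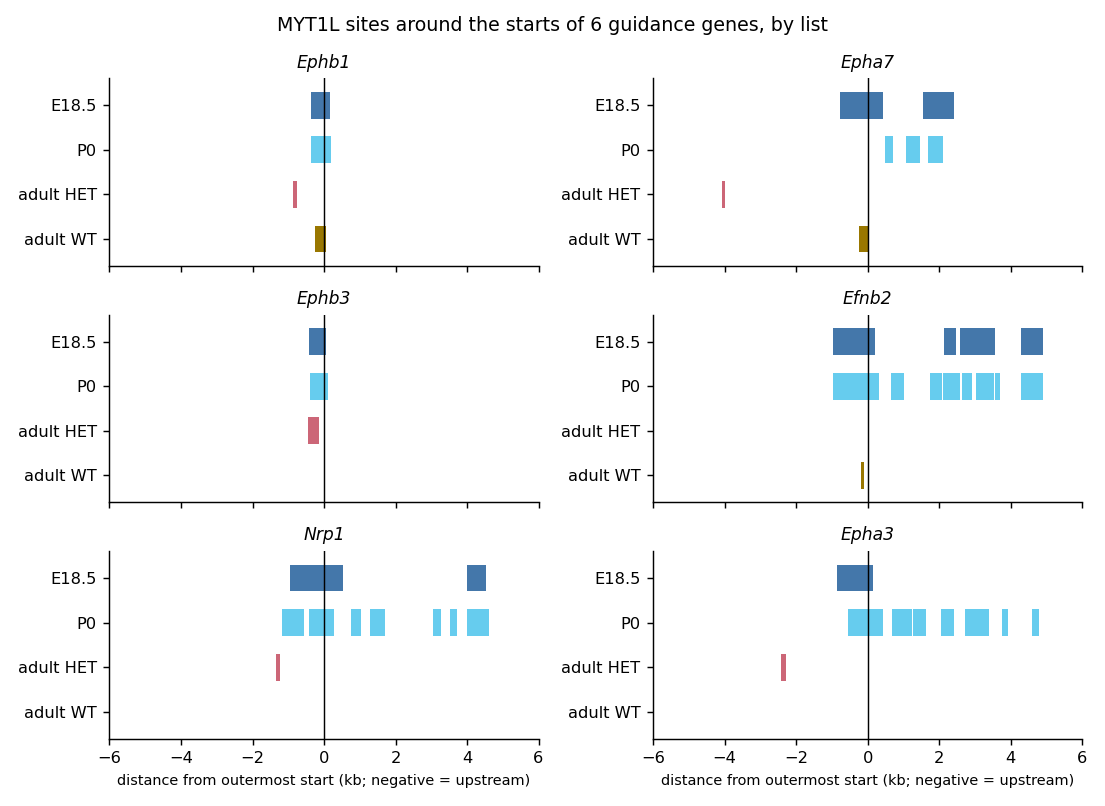
MYT1L sites within 5 kb of the starts of Ephb1, Epha7, Ephb3, Efnb2, Nrp1 and Epha3, as bars to scale along the distance from the gene's outermost start in kb (negative is upstream), with 1 row per list. The adult WT bars of Ephb1, Efnb2 and Epha7 fall within E18.5 bars, the adult HET bar of Ephb3 overlaps both perinatal bars, and the other adult HET bars lie upstream of the perinatal ones.

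Many guidance genes are long, and sites were also counted inside the gene, more than 5 kb from any start. Over the 33 genes of at least 100 kb there were 0.503 sites per 100 kb at E18.5 (all genes of that length 0.466), 1.77 at P0 (1.45), 2.40 in adult HET (2.31) and 1.39 in adult WT (1.39). The genes with most sites were Robo1 and Dcc at E18.5, with 10 and 9, Dcc and Robo1 at P0, with 23 each, Epha6 and Robo1 in adult HET, with 27 and 25, and Unc5d in adult WT, with 22. Robo2 and Unc5d followed at E18.5 with 6 each. Robo2 (17), Epha4 (14), Epha3 (13) and Unc5d (13) came next at P0. Dcc (19), Sema5a (17), Epha5 (16) and Unc5d (16) came next in adult HET, and Epha6, Plxna4 and Robo1 (10 each) and Dcc (9) in adult WT. These counts were not scaled by length, and the longest genes offer the most room for sites. Per 100 kb, Dcc had 0.824 at E18.5, 2.11 at P0, 1.74 in adult HET and 0.824 in adult WT. Robo1 had 1.37 at E18.5, 3.16 at P0, 3.44 in adult HET and 1.37 in adult WT. Among the genes of at least 100 kb, Epha4 had the most sites per 100 kb at P0, with 9.80. Of the 20 genes that were targets in no list, 8 had such a site in at least 1 list and 12 had none.

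**Figure D5:**
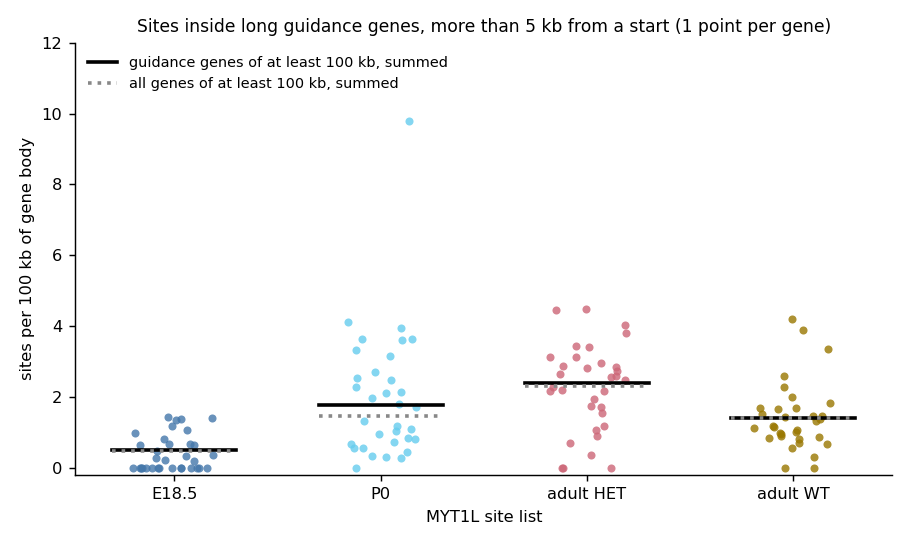
MYT1L sites per 100 kb of gene body, more than 5 kb from any start, for the 33 guidance genes of at least 100 kb (1 point per gene) in the 4 lists, with the pooled value of these genes (solid line) and of all genes of that length (dotted line). The lines nearly coincide in adult WT (1.39 for both), and the highest point is Epha4 at P0 with 9.80.

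Inside the genes, 8 of 271 adult HET sites overlapped an adult WT site (2.95%, interval 1.28 to 5.73%, all genes 4.99%). They lay in Plxna2, Plxna4, Sema3a, Sema5a, Efna3, Dcc and, with 2 sites, Unc5d. The sites in Efna3 (chr3:89316905-89317068) and Sema5a (chr15:32691205-32691365) were present in all 4 lists. Within 5 kb of guidance gene starts, 0 of 150 places were covered by all 4 lists, beside 1.65% of the 21960 places near all starts. The Efna3 site lay 5.90 kb from the nearest start used, and counting every annotated start made Efna3 a target in all 4 lists.

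None of the 196 sites near guidance gene starts was also within 5 kb of another protein-coding gene's start, whereas 20.5% of all such sites at E18.5, 15.7% at P0, 12.2% in adult HET and 14.9% in adult WT were near 2 or more genes. Another gene's start lay within 10 kb of 6 guidance genes (8.45%), beside 30.7% of all genes.

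The 98 other genes of the pathway were co-receptors, further ligands and signalling proteins that act with or downstream of these receptors. They gave 42 targets at E18.5 (42.9%, all genes 30.0%) and 75 at P0 (76.5%, all genes 45.9%). In the adult they gave 35 in HET (35.7%, all genes 23.4%) and 32 in WT (32.7%, all genes 20.1%). These genes were listed by hand, with earlier results known. No background of like promoter class was computed for them, and of all CpG-rich genes 50.3% were targets at E18.5, 71.9% at P0, 25.8% in adult HET and 27.3% in adult WT. Targets in all 4 lists were 9 of the 98, beside 4.75% of all genes. Among them were the adhesion proteins Flrt2 and Lrrc4c, Nell2, the collapsin response mediator Dpysl5 and the Eph effectors Itsn1 and Tiam1. The others were the Slit-Robo GTPase activator Srgap3, the netrin effector Trim9 and the actin-severing protein Cfl1. The co-receptors, further ligands and adhesion partners gave 11 of 22 targets at E18.5, 19 at P0, 5 in adult HET and 6 in adult WT. The Eph and ephrin effectors gave 5 of 14 at E18.5, 10 at P0 and 7 in each adult list, and the GTPases and actin effectors gave 8 of 16 at E18.5, 13 at P0, 5 in adult HET and 4 in adult WT.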

How the data were processed

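CUT&RUN was performed on 24 samples, of which 12 were MYT1L libraries in 4 groups of 3. Some adult titles carry Myt2l or Myt3l. Their descriptions name the site list of Myt1l, so they were grouped with the MYT1L libraries. The authors ran nf-core/cutandrun against build mm10 and deposited 1 list of site positions per group, in bp, merged over libraries. Which aligner and site caller were run, at which threshold and with which IgG control, is not given in the sources used here. IgG libraries were not analysed here, and depth is unknown.

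All deposited sites on 21 chromosomes entered, with positions counted from 1. Genes and starts were those of GENCODE M21, protein-coding, with the starts of basic transcripts. A promoter counted as CpG-rich at an observed over expected CpG ratio of at least 0.6 over 1000 bp around the outermost start. That start was taken over all annotated transcripts, so it was not always a start of a basic transcript. The second background used 2 CpG classes by 5 classes of the length of DNA within 5 kb of starts. Overlap required at least 1 bp. No test was made. The target rule was tested on simulated sites. Software was Python 3.11.15, numpy 2.4.6, scipy 1.17.1 and matplotlib 3.10.9.

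The members and gene lists were chosen with earlier results of these data known. Genes were named if they were targets in all lists or in no list, differed between adult HET and adult WT, or were among the 5 with the most bp near starts or the most gene-body sites in a list. Other genes were named to give family members. Sequences were taken from genes that were targets in all lists or led by bp. Alternatives were a distance of 1 kb or 10 kb, the outermost start alone, wide sites alone, sites under 50% repeat, the site midpoint, 50% overlap, the motif in the whole site or in 500 bp, and the starts of all annotated transcripts.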

Additional observations from a re-analysis of the deposited data

How the results depend on the processing

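The counts of guidance targets at E18.5 and P0 stayed within 1.5 times under each alternative except 1. With sites at least as wide as the list's median, 17 were targets at E18.5 and 6 in adult HET, 2 were called at E18.5 and not at P0, 3 in adult WT and not at P0, and 6 in adult HET and not in adult WT. The adult counts moved with the distance. At 1 kb, 3 were targets in adult HET and 7 in adult WT, with 2 in adult HET and not in adult WT. At 10 kb the counts were 24, 17 and 17. Counting the starts of all annotated transcripts, an alternative chosen after seeing the data, gave 19 in adult WT, 2 in adult WT and not in P0, and 12 in adult WT and not in adult HET. AAAGTT was present in 35.9% of whole sites at E18.5 and 24.6% at P0, and in 500 bp windows in 30.8% at E18.5, 28.5% at P0 and 31.2% in adult HET. Longer sequences offer more places for the 6 letters. The causes of the other shifts were not tested. No paired analysis was possible because the lists are merged over replicates. With unknown depth and no score per site, the number and width of sites cannot be compared between lists as amounts of binding, and an absent site does not show absent binding.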
